A study of Mus musculus with 6 samples.

Results

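The genes described here are 10 genes that carry out or control the uptake, storage and export of iron: Tfrc, Steap3, Steap4, Slc11a2, Slc11a1, Fth1, Ftl1, Slc40a1, Ireb2 and Aco1. They were chosen by name for their known roles, with earlier results of these data known. Their symbols matched 10 of the 24940 gene rows of an RNA-seq table. Bone marrow-derived macrophages (BMMs), which serve as osteoclast precursors, were grown from C57BL/6 mice aged 6 to 8 weeks, as the sample labels state, whereas the study's methods name ICR mice. All cultures received M-CSF, the growth factor of the macrophage lineage, at 30 ng/mL. The -R group received no RANKL, the +R group received RANKL, the cytokine that drives osteoclast differentiation, at 100 ng/mL, and the R+LE group received RANKL at 100 ng/mL with a methanol extract of the leaves of Abeliophyllum distichum (LE) at 10 μg/mL, each for 3 days. Each group holds 2 libraries, and neither the labels nor the methods say whether these came from separate animals or separate cultures, so p-values measure only the spread between these libraries, which may be technical. There was no group with LE and no RANKL, and the treatment of the other groups with the solvent of LE is not given in the sources used here.

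Iron bound to transferrin enters a cell through the transferrin receptor, is reduced in the endosome by a Steap ferrireductase, and crosses the endosomal membrane through a divalent metal transporter. In the cytosol it is used in heme and iron-sulfur clusters, is stored inside ferritin, a shell built of heavy and light chains, or leaves the cell through ferroportin. Macrophages are known for recycling the iron of old red cells and for holding large amounts of ferritin, while osteoclasts are rich in mitochondria and take up iron as they form. The iron regulatory proteins encoded by Aco1 and Ireb2 bind short hairpins in mRNA, the iron responsive elements, when iron is scarce. Near the 5′ end of an mRNA this binding blocks translation, and in the 3′ untranslated region (UTR) of Tfrc it protects the mRNA from decay. RNA-seq measures the amount of mRNA, so a block of translation is not seen in these data.

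The hairpins sort the genes by how iron is known to act on their mRNA. All 10 genes matched a mouse transcript of GENCODE M21 (GRCm38, the sequence of mm10), and each transcript was searched on its own strand for a C, any 5 bases, the loop CAGTGN and any 5 bases, with the 5 bases on each side of the loop facing each other as a stem. A stem position was counted as paired for Watson-Crick or G-U pairs. Of 58797 coding transcripts of GENCODE, 0.961% held a match with 5 of 5 pairs and 7.75% held one with 4 pairs or more. The transcripts of 4 of the 10 genes held matches with 5 of 5 pairs. In the 27 bases printed for each, from 5′ to 3′ with T for U, capitals mark the loop.
Tfrc 3′ UTR, chr16:32631220-32631246, plus strand: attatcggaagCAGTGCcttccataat
Tfrc 3′ UTR, chr16:32631599-32631625, plus strand: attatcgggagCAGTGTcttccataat
Tfrc 3′ UTR, chr16:32631664-32631690, plus strand: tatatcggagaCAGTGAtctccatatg
Tfrc 3′ UTR, chr16:32631711-32631737, plus strand: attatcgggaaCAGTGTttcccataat
Fth1 5′ UTR, chr19:9982733-9982759, plus strand: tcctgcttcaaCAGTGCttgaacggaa
Ftl1 5′ UTR, chr7:45459780-45459806, minus strand: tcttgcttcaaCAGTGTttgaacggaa
Slc40a1 5′ UTR, chr1:45925466-45925492, minus strand: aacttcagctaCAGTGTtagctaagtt
The Tfrc matches start 892, 1271, 1336 and 1383 bases past the stop codon. Those of Fth1, Ftl1 and Slc40a1 start at base 93, base 84 and base 96 of their transcripts, ahead of the coding sequence.

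Matches with only 4 of 5 pairs were found in 2 further genes and are shown because they differ in where they lie.
Slc11a2 3′ UTR, chr15:100395154-100395180, minus strand: gccatcagagcCAGTGTgtttctatgg
Slc11a1 coding sequence, chr1:74383497-74383523, plus strand: taacactgtgtCAGTGGatatttatca
The Slc11a2 match lies 41 bases past the stop codon of the transcript Slc11a2-205. The table's row for Slc11a2 corresponds to another transcript, Slc11a2-201, which has a different 3′ end and held no match, so the level given below is counted on the exons of Slc11a2-201, and reads on exons that both forms share may come from either. No transcript of Steap3, Steap4, Ireb2 or Aco1 held a match, which says only that these letters and pairs were not found in them. A match is a description of sequence, and neither binding nor iron was measured.

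**Figure D1:**
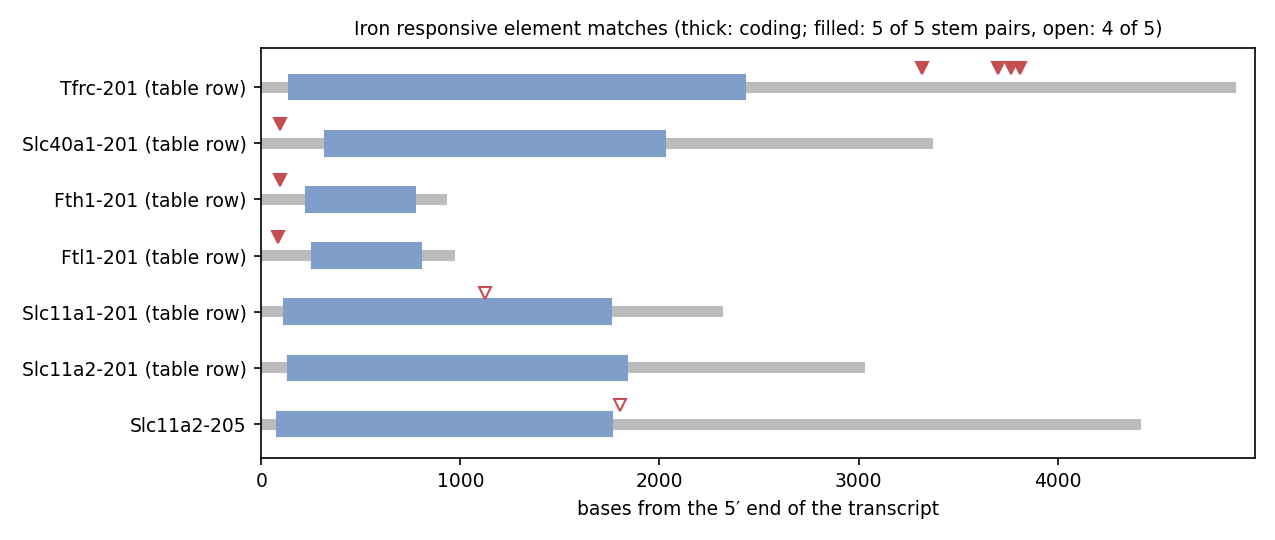
Positions of iron responsive element matches along the transcripts, in bases from the 5′ end, with UTRs in grey, coding sequence in blue and matches as triangles (filled, 5 of 5 stem pairs; open, 4 of 5). The 4 Tfrc matches lie in the 3′ UTR, those of Slc40a1, Fth1 and Ftl1 near the 5′ end, and the Slc11a2 match only in the transcript that is not the row of the table.

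Levels are given as the deposited RPKM, which counts reads for each kilobase of a transcript in every 1000000 mapped reads. The libraries held between 29390202 and 34846385 mapped reads, recovered from the steps between low values, of which 74.2% to 80.7% lay on genes. A gene passed the test when the Benjamini-Hochberg adjusted p of limma, fitted to log2(RPKM + 0.5) of the 11595 genes that averaged at least 0.5 RPKM, was below 0.05, and was called when it also changed at least 2-fold. Fold changes are on this scale unless given as a ratio of mean RPKM. All 10 genes passed the filter on low values. Steap4 passed it only through its level in +R, so it had to differ between groups, and counts are also given for the other 9 genes. An exact permutation test of a single gene between 2 and 2 libraries cannot give a p below 0.333, so none was used. The libraries of bulk cultures cannot tell fewer cells of a type from less RNA per cell.

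The order of the levels per length separated the ferritin chains from everything else. In -R, Ftl1 stood at 14460 RPKM and Fth1 at 8629, followed by Slc11a1 at 224.3, Steap3 at 60.5, Tfrc at 54.0, Slc40a1 at 16.0, Aco1 at 13.0, Ireb2 at 12.3, Slc11a2 at 6.63 and Steap4 at 0.009 (means of 2 libraries). The neighbours Steap3 and Tfrc, and Aco1 and Ireb2, overlapped between libraries in -R. In +R no neighbours overlapped, Tfrc stood above Slc11a1, and Slc40a1 was last at 0.923 RPKM, below Steap4 at 2.11. In R+LE the order of the first 3 genes was again Ftl1, Fth1 and Slc11a1, Steap4 was last at 0.201 RPKM, and Aco1 and Slc11a2 overlapped. Between 90 and 478367 reads stood behind each value of the 9 genes other than Steap4.

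**Figure D2:**
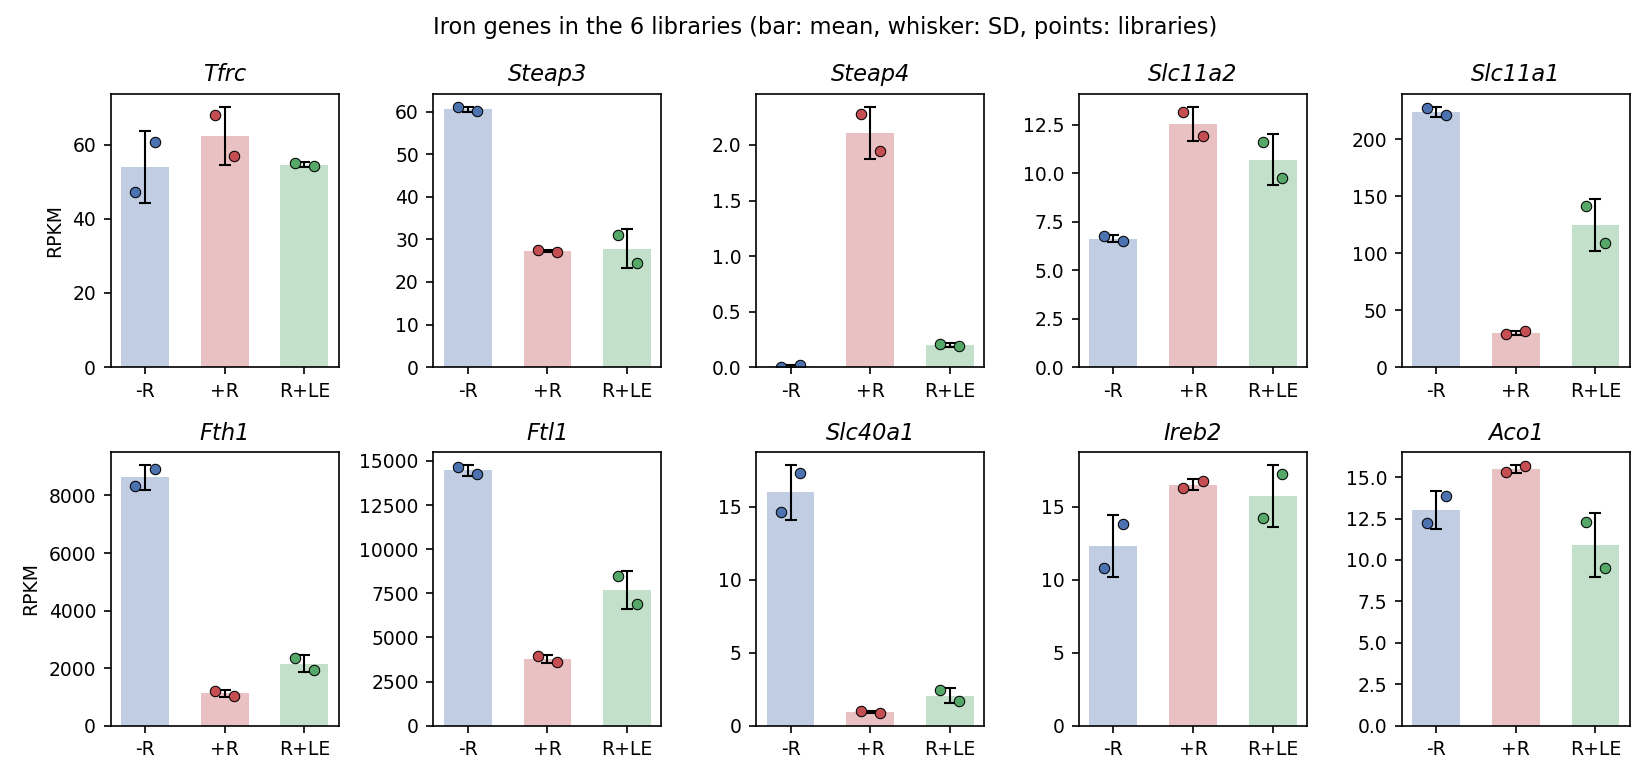
RPKM of the 10 iron genes in the 6 libraries, on a linear axis from 0 of its own for each gene, with bars for the mean of 2 libraries, whiskers for the SD and points for the libraries. Slc11a1, Fth1, Ftl1 and Slc40a1 are lowest in +R and between the other groups in R+LE, Steap4 is highest in +R, and Tfrc overlaps between -R and +R.

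With RANKL, the genes of storage, export and phagosomal transport were lower. Among the genes of uptake and regulation, 3 were higher and Steap3 was lower. Of the 10 genes, 3 rose (Steap4, Slc11a2 and Ireb2) and 5 fell (Slc40a1, Fth1, Slc11a1, Ftl1 and Steap3), while Tfrc and Aco1 did not pass the test. Over all 11595 genes tested, 23.9% rose and 21.5% fell in the same comparison. Called were 6 of the 10 genes, against 15.5% of all genes. Without Steap4, 2 of 9 genes rose, 5 fell and 5 were called. The median log2 fold change of the 10 genes was -0.46, against 0.045 over all genes.

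With LE added to RANKL, the storage, export and phagosomal genes were higher than with RANKL alone and Steap4 was lower. Of the 10 genes, 4 rose (Slc11a1, Ftl1, Fth1 and Slc40a1) and 2 fell (Steap4 and Aco1), against 5.19% and 6.86% of all genes tested. Called were Slc11a1, Ftl1 and Steap4, 3 of the 10 genes, against 3.23% of all genes. Without Steap4, 4 of 9 genes rose, 1 fell and 2 were called. The median log2 fold change was -0.027 for the 10 genes and -0.047 for all genes, with members moving in both directions. This comparison shares the +R libraries with that of RANKL, so a deviation in those libraries moves both, in opposite directions.

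Set against the cultures without RANKL, those with RANKL and LE still differed. Of the 10 genes, Slc11a2 rose and 5 fell (Slc40a1, Fth1, Steap3, Ftl1 and Slc11a1), against 15.3% and 19.0% of all genes. Called were Slc40a1, Fth1 and Steap3, 3 of the 10 genes, against 10.3% of all genes.

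**Figure D3:**
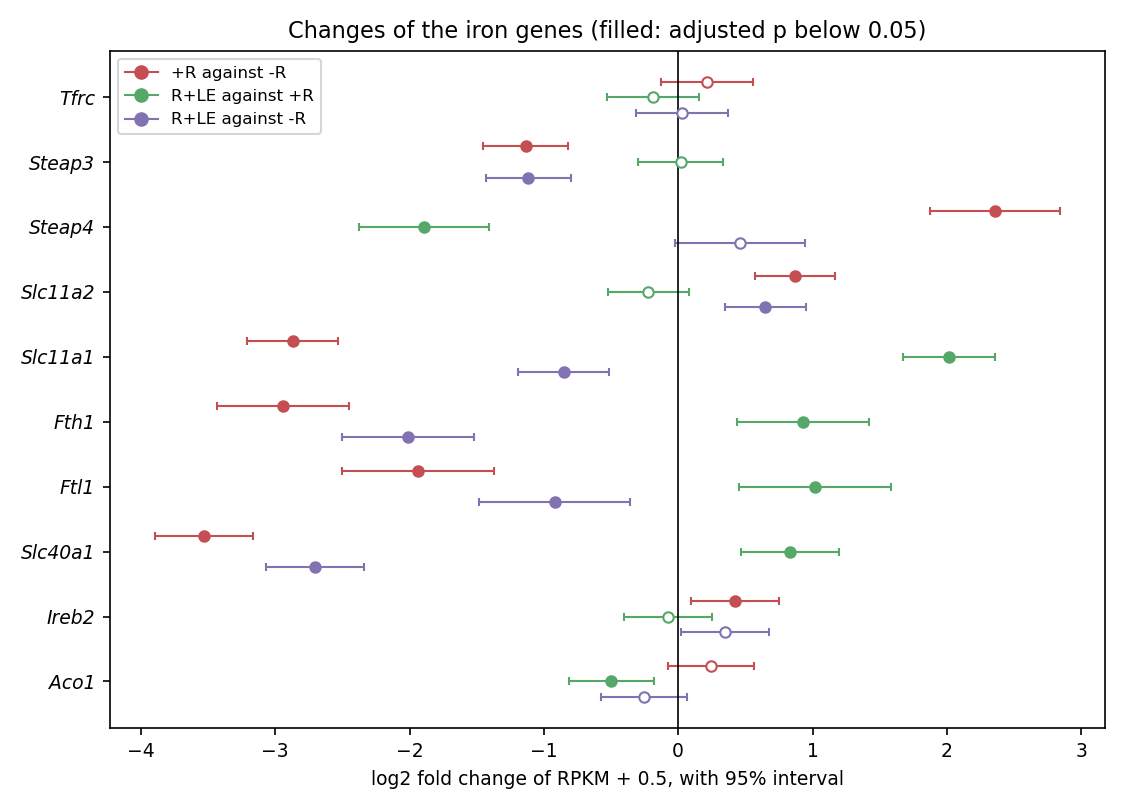
Log2 fold change of RPKM + 0.5 of each iron gene in the 3 comparisons (points, filled where the adjusted p is below 0.05) with 95% confidence intervals from limma (whiskers). Slc40a1, Fth1 and Slc11a1 lie farthest to the left with RANKL, Slc11a1 lies farthest to the right with LE at 2.02, and all 3 intervals of Tfrc cross 0.

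Markers of cell types moved with these genes. The summed level of 6 macrophage markers was 6649 to 7233 RPKM in -R, 2687 to 3452 in +R and 3759 to 4201 in R+LE. By the test, 5 of 6 were lower with RANKL and 1 of 6 was higher with LE. Most of the sum was Lyz2, which ranged from 1815 to 2448 RPKM with RANKL alone and from 2929 to 3191 with LE added. Both R+LE libraries were above both +R libraries for Lyz2, Adgre1, Cd14 and Itgam, while Csf1r overlapped. Cd68 went the other way, at 468 and 422 RPKM with RANKL alone, against 376 and 297 with LE added. The 8 osteoclast markers summed to 43.2 to 44.8 RPKM in -R, 1866 to 2123 in +R and 329 to 380 in R+LE, and all 8 rose with RANKL and fell with LE. Among them Calcr, at 0 RPKM in -R, passed the filter on low values only through +R, so it had to differ between groups. Over all genes tested, 23.9% rose and 21.5% fell with RANKL, and 5.19% rose and 6.86% fell with LE. Markers of dividing cells summed to 104 to 128 RPKM in -R, 244 to 267 in +R and 240 to 271 in R+LE, and all 6 rose with RANKL while none passed with LE. The part of these shifts in the levels of the iron genes was not tested. Of the erythroid markers, the globin genes Hba-a1 and Hbb-bs were at 0 in every library, and Alas2, the heme synthesis enzyme of red cell precursors, was at 0.478 and 0.583 RPKM in -R and between 0.033 and 0.256 in the other libraries. The 6 neutrophil markers summed to 11.1 to 11.4 RPKM in -R and to at most 2.53 in the other groups, the 3 markers each of T cells and B cells stayed below 1 RPKM in sum, and 5 stromal markers summed to 13.2 to 14.9, 8.90 to 13.0 and 6.93 to 7.90 RPKM in the 3 groups. Rn45s, the ribosomal RNA precursor, took 4.97% to 6.83% of gene reads in -R and 10.9% to 13.5% in the other groups, and leaving it out of the depth moved the median log2 fold change of all genes with RANKL from 0.045 to 0.10.

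Tfrc, the transferrin receptor, through which most cells take up iron, lies on the plus strand of chromosome 16 from 32608896 to 32632794 (mm10). Its level was 47.1 and 60.8 RPKM in -R, against 68.0 and 56.9 in +R and 55.1 and 54.1 with LE added. The -R and +R libraries overlapped, and the R+LE libraries were both below the +R libraries. The log2 fold change was 0.21 (SE 0.16, 95% interval -0.13 to 0.56, limma adjusted p = 0.295) with RANKL and -0.19 (SE 0.16, adjusted p = 0.572) with LE. For the comparison of R+LE with -R the adjusted p was 0.91. After each gene was centred on its own mean, the 3 tested genes that followed Tfrc most closely over the 6 libraries were Dclre1a, Dapp1 and Bgn, with root mean square distances of 0.028, 0.032 and 0.039 on the log2 scale among 11594 genes, which describes flat profiles as much as like ones.

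Steap3, the endosomal reductase that turns ferric into ferrous iron for release from transferrin, lies on the minus strand of chromosome 1 from 120226416 to 120265280. It stood at 61.0 and 60.0 RPKM in -R, then 27.5 and 27.1 with RANKL alone and 31.1 and 24.6 with LE added. Both groups with RANKL were below -R, and the R+LE libraries lay on either side of the +R libraries. It fell by 1.14 on the log2 scale with RANKL (SE 0.148, limma adjusted p = 1.5e-05). With LE the log2 fold change was 0.02 (95% interval -0.30 to 0.34, adjusted p = 0.962), and R+LE against -R gave -1.12 (adjusted p = 2.85e-05).

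Steap4, a metalloreductase of the same family that sits at the plasma membrane and in endosomes, lies on the plus strand of chromosome 5 from 7960472 to 7982213. It was listed at 0 and 0.018 RPKM in the cultures without RANKL, against 2.28 and 1.94 in +R and 0.212 and 0.189 with LE added. These values come from 0 and 2 reads, 219 and 187 reads, and 21 and 18 reads, and 3 reads, the limit that a count of 0 allows, correspond to between 0.0275 and 0.0326 RPKM. Every +R library was about an order of magnitude above every R+LE library, and both -R libraries were below the limit. Because Steap4 passed the filter only through +R, the adjusted p-values given for it here come from the limma fit with no filter. It rose with RANKL by 2.36 on the log2(RPKM + 0.5) scale (adjusted p = 0.000237), a scale that understates the change of a gene this low. As reads per mapped read, 406 against 2 reads gave a ratio of 212 with an exact 95% counting interval of 58.4 to 1760. With LE it fell by 1.90 on the same log2 scale (adjusted p = 0.00569), which was 10.5-fold in mean RPKM. In R+LE, 39 reads against 2 gave a ratio to -R of 20.2 (5.23 to 173), while the log2 fold change was 0.46 (adjusted p = 0.0406 with no filter and 0.133 with it). With a pseudocount of 0.1 it was 1.47 (adjusted p = 0.0304). The counting intervals cover counting error only.

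Slc11a2, the divalent metal transporter that moves iron out of the endosome, lies on the minus strand of chromosome 15 from 100387900 to 100423055. The level was 6.75 and 6.51 RPKM in -R, against 13.2 and 11.9 in +R and 11.6 and 9.76 with LE added. Both groups with RANKL were above -R. It rose by 0.87 with RANKL (SE 0.141, limma adjusted p = 0.000129), and was 0.65 higher in R+LE than in -R (adjusted p = 0.0023). With LE the log2 fold change was -0.22 (95% interval -0.52 to 0.08, adjusted p = 0.393). The transcript shares 94 of 3025 bp with Gm5475 on the opposite strand, and reads were counted without regard to strand, so reads of that stretch cannot be told apart.

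Slc11a1, the transporter of late endosomes and phagosomes that removes iron and other divalent metals from engulfed material, lies on the plus strand of chromosome 1 from 74375203 to 74386051. Its level was 228 and 221 RPKM in -R, then 29.1 and 31.4 with RANKL alone and 141 and 109 with LE added. The 3 groups were separate, with R+LE between the others. It fell by 2.87 on the log2 scale with RANKL (SE 0.16, limma adjusted p = 1.39e-09), a 7.41-fold difference in mean RPKM. With LE it rose by 2.02 (SE 0.16, adjusted p = 1.03e-06), or 4.13-fold in mean RPKM. The log2 fold change of R+LE against -R was -0.85 (adjusted p = 0.00068). Its counterpart in the endosome, Slc11a2, belongs to the same protein family and moved the other way with RANKL.

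Fth1 encodes the ferritin heavy chain, which oxidises iron for storage, and lies on the plus strand of chromosome 19 from 9982646 to 9985111. It stood at 8326 and 8932 RPKM in the cultures without RANKL, against 1215 and 1039 in +R and 2356 and 1945 with LE added. The 3 groups were separate. The log2 fold change was -2.94 with RANKL (SE 0.23, limma adjusted p = 6.08e-08), or 7.66-fold lower in mean RPKM. With LE it rose by 0.93 (adjusted p = 0.014), or 1.91-fold, which is short of a 2-fold call. R+LE against -R gave -2.01 (adjusted p = 6.38e-06), or -1.35 after quantile normalization.

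Ftl1 encodes the ferritin light chain, which helps iron to form its mineral core, and lies on the minus strand of chromosome 7 from 45457944 to 45459886. Its level was 14676 and 14241 RPKM in -R, against 3957 and 3599 in +R and 8452 and 6904 with LE added. These groups, too, were separate. The log2 fold change was -1.94 with RANKL (SE 0.265, limma adjusted p = 2.44e-05), or 3.83-fold lower in mean RPKM. With LE it rose by 1.02 (adjusted p = 0.0193), or 2.03-fold. In log2, R+LE against -R gave -0.92 (adjusted p = 0.014). In that last comparison the adjusted p was 0.192 and 0.16 without the first or the second -R library and 0.0646 with only the compared groups in the fit.

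Whether Fth1 and Ftl1 passed the test with LE changed with the fit. The fitted SE of Ftl1 was 0.265 with the variance trend and 0.153 without it. Leaving out either +R library or either -R library gave an adjusted p of 0.0807 to 0.214 for Fth1 and 0.129 to 0.226 for Ftl1, and fitting only the compared groups gave 0.0726 and 0.126. Without the variance trend the adjusted p was 0.00272 for Fth1 and 0.00133 for Ftl1, and voom on the recovered reads gave 5.52e-06 and 6.11e-06. The log2 fold change when any 1 library was left out lay between 0.79 and 1.07 for Fth1 and between 0.87 and 1.16 for Ftl1, whereas quantile normalization gave 1.28 for Fth1 and 0.38 for Ftl1. Without a filter on low values, the adjusted p with LE was 0.421 for Fth1 and 0.694 for Ftl1, and that of Ftl1 with RANKL was 0.204.

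Fth1 and Ftl1 together took 2.82% and 2.80% of gene reads in -R, against 0.614% and 0.582% in +R and 1.29% and 1.14% with LE added. Ftl1 was the most abundant gene of the table in both -R libraries, where Fth1 ranked 3 and 2. In +R, Ftl1 ranked 3 and 3 and Fth1 ranked 25 and 37, and in R+LE they ranked 2 and 2, and 7 and 6. The ratio of Ftl1 to Fth1 in RPKM was 1.76 and 1.59 in -R, then 3.26 and 3.46 with RANKL alone and 3.59 and 3.55 with LE added, so both groups with RANKL lay above -R and R+LE lay above +R. Its mean (± SD, n = 2) was 1.68 ± 0.12 for -R, 3.36 ± 0.14 for +R and 3.57 ± 0.027 for R+LE. With 2 libraries a group these differences in ratio were not tested. GENCODE holds 7 pseudogenes with symbols that begin with Fth or Ftl, among them those of Fthl17, and 1 of the 7 has a row in the table. Ferritin pseudogenes under other names were not counted. How reads that fit several copies were placed is not given in the sources used here. Ftl1 also shares 355 of its 968 bp with Gm10252 on the opposite strand and 109 bp with the miRNA entry Gm22133 on the same strand.

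**Figure D4:**
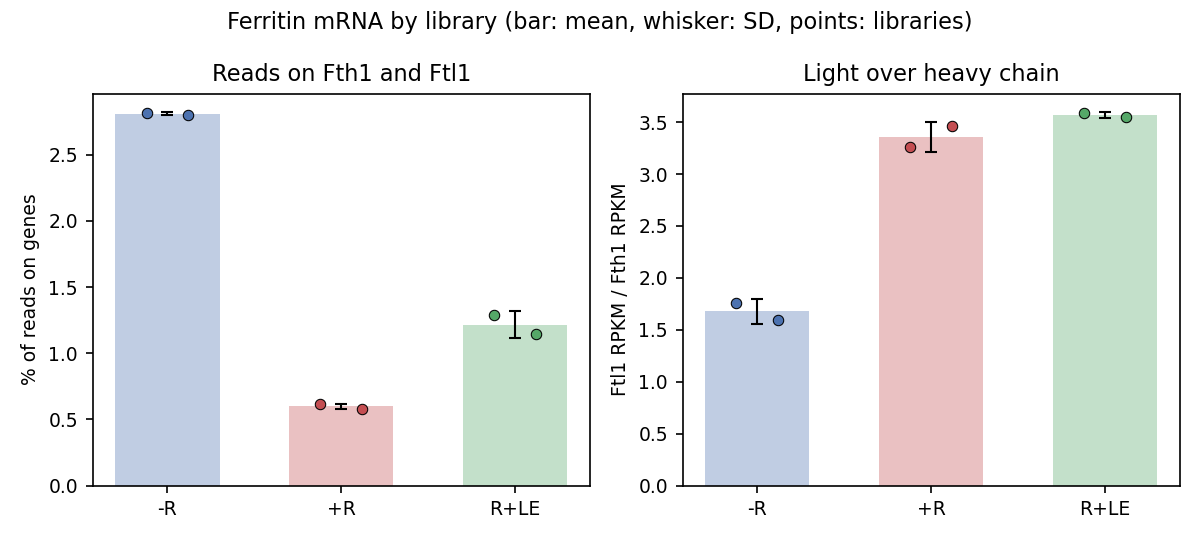
Left, reads on Fth1 and Ftl1 as a percentage of all reads on genes. Right, the ratio of Ftl1 to Fth1 in RPKM. Bars show means of 2 libraries, whiskers the SD and points the libraries, with both axes from 0. The share falls from 2.81% in -R to 0.598% in +R and is 1.21% in R+LE, while the ratio is 1.68 in -R and 3.36 and 3.57 in the groups with RANKL.

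Slc40a1, which encodes ferroportin, the exporter that returns iron from macrophages to plasma, lies on the minus strand of chromosome 1 from 45908070 to 45925594. Its level was 14.7 and 17.3 RPKM in the cultures without RANKL, against 0.976 and 0.870 in +R and 2.43 and 1.69 with LE added. The groups were separate, and both groups with RANKL lay far below -R. It fell by 3.53 on the log2 scale with RANKL (SE 0.17, limma adjusted p = 2.73e-10), or 17.3-fold in mean RPKM, and this was the largest fall among the 10 genes. With LE it rose by 0.83 (adjusted p = 0.00416), or 2.23-fold in mean RPKM, and the adjusted p was 0.0974 without a filter on low values. For R+LE against -R the log2 fold change was -2.70 (adjusted p = 1.1e-08). After each gene was centred on its own mean, the 3 tested genes whose profiles over the 6 libraries were most like that of Slc40a1 were Cd300lf, Slc15a3 and C3ar1, at distances of 0.099, 0.128 and 0.152, whatever their levels.

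Ireb2 encodes iron regulatory protein 2, which cells degrade when iron is plentiful, and lies on the plus strand of chromosome 9 from 54863755 to 54912534. Its level was 10.8 and 13.8 RPKM in -R, against 16.3 and 16.8 in +R and 14.2 and 17.2 with LE added. Both +R libraries were above -R and lay within the range of R+LE. It rose by 0.42 with RANKL (limma adjusted p = 0.036). It did not pass without the first -R library (0.25, adjusted p = 0.328), without the first or the second +R library (0.0818 and 0.115), without the variance trend (0.0581) and without a filter (0.104). With LE the log2 fold change was -0.07 (adjusted p = 0.851) and against -R it was 0.35 (adjusted p = 0.0955).

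Aco1 encodes iron regulatory protein 1, which with an iron-sulfur cluster works as a cytosolic aconitase and without it binds RNA. It lies on the plus strand of chromosome 4 from 40143265 to 40199009. The level was 12.2 and 13.8 RPKM in -R, then 15.3 and 15.7 with RANKL alone and 12.3 and 9.52 with LE added. Both +R libraries were above all the others. With RANKL the log2 fold change was 0.24 (limma adjusted p = 0.202), and with LE it fell by 0.50 (SE 0.149, adjusted p = 0.0415). The fall did not pass without the second R+LE library (-0.32, adjusted p = 0.245), without either -R library (0.0826 and 0.0829), without either +R library (0.107 and 0.136), or with only the compared groups in the fit (0.0834), no variance trend (0.0736) or no filter (0.154). R+LE against -R gave -0.26 (adjusted p = 0.207).

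Other genes of iron and heme handling were counted from 7 lists of 76 genes, of which 72 were in the table and 53 were tested. With RANKL, 16 of the 53 rose and 16 fell, where 23.9% and 21.5% of all genes did. With LE, 7 rose and 5 fell (5.19% and 6.86% of all genes). In R+LE against -R, 6 rose and 12 fell (15.3% and 19.0% of all genes). The falls counted with RANKL and in R+LE against -R include Cd163, which passed the filter on low values only through -R. The median log2 fold change of the 53 genes was 0.14 with RANKL and -0.16 with LE, against 0.045 and -0.047 over all genes. The single lists below are to be read against the same shares, and with so few genes in each, nothing particular to a list is drawn from its count.

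Heme import, export and breakdown, which in macrophages frees iron from engulfed red cells, held the gene with the largest fall of all the lists, Hmox1. Of its 8 tested genes, 7 fell and 0 rose with RANKL, while 3 rose and 1 fell with LE, and against -R 6 fell and 0 rose in R+LE. Hmox1, heme oxygenase 1, which opens the heme ring, stood at 549 and 542 RPKM in the cultures without RANKL, against 34.0 and 25.1 in +R and 76.5 and 58.4 with LE added. Its groups were separate, and the log2 fold change was -4.20 with RANKL (limma adjusted p = 8.11e-11) and 1.18 with LE (adjusted p = 0.000406). Slc48a1, which carries heme out of the phagolysosome, stood at 94.4 and 106 RPKM in -R, against 19.8 and 18.3 in +R and 44.6 and 33.3 with LE added. It changed by -2.36 with RANKL (adjusted p = 1.21e-08) and by 1.0 with LE (adjusted p = 0.000598). Blvrb, a biliverdin reductase of the breakdown path, was at 126 and 105 RPKM in -R, then 38.8 and 43.0 with RANKL alone and 120 and 96.1 with LE added. Unlike Hmox1, its R+LE libraries overlapped those of -R (log2 fold change -0.10, adjusted p = 0.688). It changed by -1.48 with RANKL (adjusted p = 2.59e-06) and by 1.39 with LE (adjusted p = 3.84e-05).

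Among the 7 tested regulators and genes of ferritin turnover, 2 rose and 3 fell with RANKL, where 23.9% and 21.5% of all genes did, and 1 rose and 1 fell with LE. Ncoa4, the receptor that delivers ferritin to lysosomes for breakdown, was at 18.9 and 19.8 RPKM in the cultures without RANKL, against 59.1 and 51.1 in +R and 29.4 and 20.5 with LE added. It moved opposite to the ferritin chains in both comparisons, rising by 1.48 with RANKL (limma adjusted p = 3.65e-06) and with LE showing a log2 fold change of -1.15 (adjusted p = 0.000301). R+LE against -R gave 0.33 (adjusted p = 0.142). Fbxl5, the iron-sensing ligase subunit that targets Ireb2 protein for degradation, was chosen after its values were seen. It changed by -0.69 with RANKL (adjusted p = 0.000963) and by 0.57 with LE (adjusted p = 0.0137).

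Iron-sulfur clusters and heme are made with iron brought into mitochondria. Of 19 tested genes of iron-sulfur cluster assembly, 9 rose and 0 fell with RANKL, against 23.9% and 21.5% of all genes, with a median of 0.40. With LE 0 rose and 2 fell, against 5.19% and 6.86% of all genes, with a median of -0.27. Fdx1, a ferredoxin that supplies electrons for cluster assembly, was at 5.28 and 5.00 RPKM in -R, against 10.8 and 11.5 in +R and 9.93 and 7.65 with LE added, and rose by 1.05 with RANKL (limma adjusted p = 3.52e-05). With LE its log2 fold change was -0.34 (adjusted p = 0.18). Of 6 tested genes of mitochondrial iron transport, 3 rose and 1 fell with RANKL, and 1 rose and 1 fell with LE. Slc25a37, mitoferrin 1, which brings iron into mitochondria and was also chosen after its values were seen, changed by -0.83 with RANKL (adjusted p = 0.000688) and by 0.84 with LE (adjusted p = 0.00292). Of 8 tested genes of heme synthesis, 2 rose, close to the 23.9% of all genes, and 0 fell with RANKL, and none passed with LE.

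Outside the cell, carriers bring heme and hemoglobin to macrophage receptors, and 2 of their receptors were in the tested set. Lrp1, a receptor for hemopexin with heme among many ligands, was at 141 and 153 RPKM in -R, then 57.2 and 70.4 with RANKL alone and 91.6 and 138 with LE added. Its log2 fold change was -1.21 with RANKL (limma adjusted p = 9.58e-05) and 0.82 with LE (adjusted p = 0.00935). Cd163, the receptor for hemoglobin with haptoglobin, was at 1.93 and 2.29 RPKM in the cultures without RANKL, against 0.252 and 0.334 in +R and 0.469 and 0.726 with LE added. It passed the filter on low values only through -R, so no test of it is given. Both +R and both R+LE libraries were below both -R libraries. All 3 tested genes of the list of ferroxidases, other reductases and transporters fell with RANKL, among them Slc39a8, a zinc and iron importer, at 3.24 and 3.57 RPKM in -R, against 1.53 and 1.05 in +R and 1.54 and 1.19 with LE added. With LE, Slc39a8 gave 0.07 (adjusted p = 0.898), and 1 of the 3 genes rose.

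**Figure D5:**
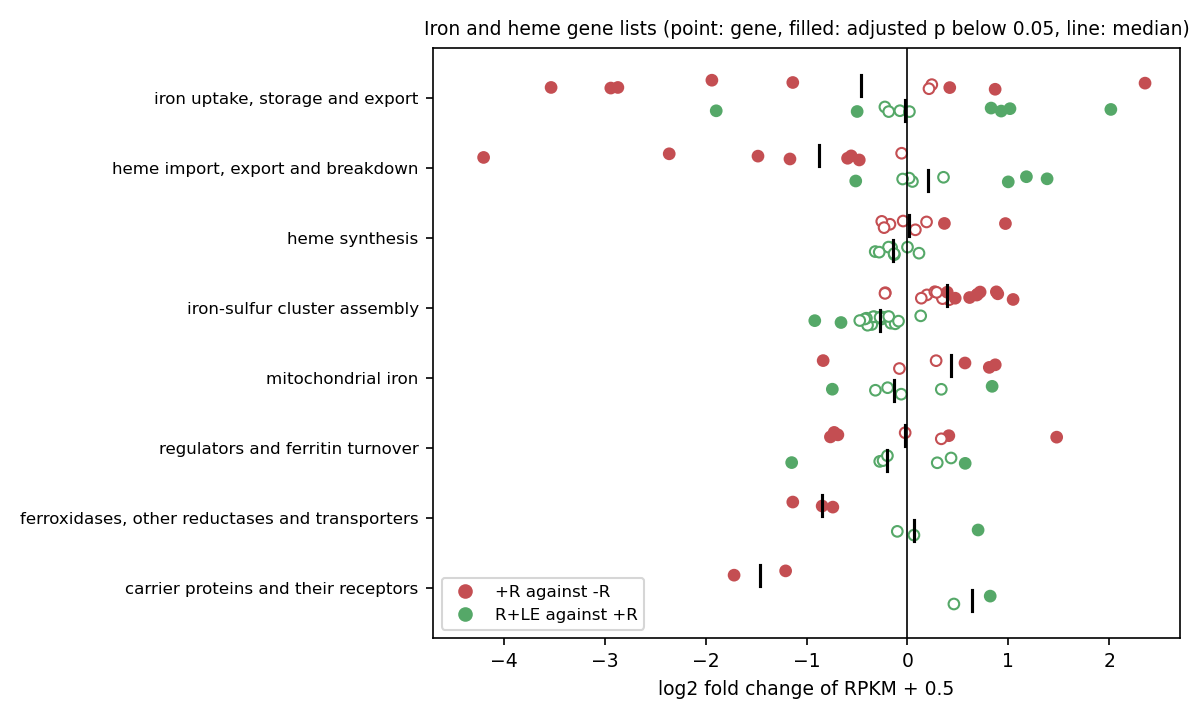
Log2 fold change of RPKM + 0.5 of each tested gene in the list of 10 iron genes and in 7 other lists, with RANKL (red) and with LE added (green), filled where the adjusted p is below 0.05, and with the median of each list as a vertical line. The list of heme import, export and breakdown lies to the left with RANKL (median -0.88), and iron-sulfur assembly lies to the right (0.40). The points include Cd163, which passed the filter on low values only through -R, and Steap4, which passed it only through +R.

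Promoters were searched for short motifs in the RefSeq table of the GRCm38.p6 assembly, from 250 bases before to 50 bases after each start. It held 13 promoters of 8 of the genes among 32851, and Slc40a1 and Slc11a2 were not matched. The core of the antioxidant response element, TGACNNNGC on either strand, was in 0 of the 13 promoters and in 12.4% of all promoters, and the E-box CACGTG was in 0 of 13 and in 7.15% of all. Of the hypoxia response element cores, ACGTG, which the E-box contains, was in 2 of 13, as 1 site that the overlapping windows of Tfrc share, against 19.6% of all. GCGTG was in 6 of 13, those of Fth1, Ftl1, Slc11a1, Steap3 and Tfrc, against 32.4% of all. The loop CAGTGN on the sense strand was in 5 of 13, of Ftl1, Slc11a1 and Steap3, against 34.6% of all. The Ftl1 site lies at -243 from the start, ahead of the transcript, so it is not the 5′ UTR match printed above. As the window ends 50 bases after the start, the 5′ UTR matches of Fth1 and Ftl1 lie outside it. The Steap3 sites of GCGTG and of the loop lie in alternative promoters, and not in the one 6 bases from the start of its row. These matches describe letters in a window and show no binding.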

How the data were processed

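RNA-seq of BMM cultures was analysed in 3 groups of 2 libraries, grouped by their labels. The authors aligned reads to mm10 (the study's methods name TopHat, the submitters' processing notes HISAT2, HOMER and DESeq2, without versions), counted reads on exons with HOMER without regard to strand, with 1 transcript per gene, and deposited the values as RPKM under column titles that say FPKM. All value columns were used. All 26 symbols that had become dates were restored from transcript identifiers.

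Because RPKM is not a count, limma version 3.58.1 in R 4.3.3 was fitted to log2(RPKM + 0.5) of all 6 libraries, with empirical Bayes moderation, a variance trend and Benjamini-Hochberg adjustment over the 11595 genes that averaged at least 0.5 RPKM. The fit was tested on simulated data. Whole reads were recovered from transcript lengths and steps between low values, and every value checked was whole within 0.1 read. The libraries of a group were set against sampling noise, and the chi-square for each gene averaged 25.4 (-R), 14.6 (+R) and 32.1 (R+LE), so none was a repeat deposit.

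The members, gene lists and tests were chosen with earlier results of these data known. Named are the 10 genes, up to 3 called genes of each other list with the largest change in each comparison, and for Tfrc and Slc40a1 the 3 genes with the smallest root mean square distance between centred profiles. Fbxl5 and Slc25a37, which were not called, were named outside this rule after their values were seen. Sequences come from GENCODE M21 and RefSeq. Python 3.11.15, numpy 2.4.6, pandas 2.3.3 and matplotlib 3.10.9 were used. The alternatives tried were another pseudocount (0.1 or 1), another filter (none, or a mean of at least 1 RPKM), no variance trend, a fit of the compared groups alone, median centring, quantile normalization, depth without Rn45s, a replicate block, voom on recovered reads, and leaving out each library. The summed level of the erythroid markers is not reported here.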

Additional observations from a re-analysis of the deposited data

How the results depend on the processing

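Of 507 values of the 10 genes recomputed under the alternatives, 464 kept their direction and their side of the threshold, 31 no longer passed the test, 9 newly passed it and 3 changed sign. The sign changes came with a library left out, which put Ireb2 with LE between -0.21 and 0.06, Steap3 with LE between -0.15 and 0.19 and Tfrc in R+LE against -R between -0.15 and 0.21 (in log2), and none of the 3 passed the test. Of the 10 genes, 8 passed with RANKL and 7 to 8 did so when 1 library was left out. With LE, 6 passed, against 3 to 6 when 1 library was left out (3 without either -R or either +R library), 3 when only the compared groups were fitted and 2 with no filter on low values, when 18427 genes were tested. In R+LE against -R, 6 passed, against 5 to 8 when 1 library was left out. Slc11a1 passed with LE in each alternative of pseudocount, filter, model and scaling. When 1 library was left out, its log2 fold change with LE kept its direction and stayed between 1.83 and 2.20. The counts of genes that passed include Steap4, which had to differ between groups to pass the filter, so they lend it no support. With no filter Steap4 passed with LE (limma adjusted p = 0.00569). Its log2 fold change with LE lay between -1.99 and -1.80 when 1 library was left out. Steap4 was not tested at a mean of at least 1 RPKM, which left 9 genes. In R+LE against -R, Steap4 passed with voom on the recovered reads (4.18, adjusted p = 1.46e-05) and with a pseudocount of 0.1 (1.47, adjusted p = 0.0304). It also passed there with no filter (0.0406) and without the variance trend (0.0286). It did not pass there with quantile normalization (0.615), with only the compared groups in the fit (0.236) or with a pseudocount of 1 (0.22). Nor did it pass with the replicate block (0.125), with depth without Rn45s (0.11) or with median centring (0.0823).

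The groups share replicate numbers. With the replicate number as a block, 8, 6 and 6 of the 10 genes passed in the 3 comparisons, the counts found without it. Deviations of same-numbered libraries from their group means correlated by -0.05 between -R and +R, 0.11 between -R and R+LE and 0.25 between +R and R+LE, and nothing in the labels ties the numbers to a shared culture or day, so the numbers were not taken to pair the libraries.

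With 2 libraries a group, the intervals of small changes are wide beside their size, and the rise of Ireb2 with RANKL and the fall of Aco1 with LE, though they passed the test, did not pass without several single libraries. Steap4 rests on 2 reads in -R.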
